A study of Homo sapiens with 18 samples.

Results

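The integrin and laminin genes of K562, a human leukemia cell line, were compared between cells with an empty vector (V-K562), cells expressing wtBASP1 (B-K562) and cells expressing BASP1-G2A (G-K562), a mutant that is not myristoylated. The members were all genes whose symbol is that of an integrin alpha subunit, an integrin beta subunit or a laminin chain, other than ITGA2B and ITGB3, the chains of the platelet fibrinogen receptor. This gave 36 of the 28395 genes listed, namely 17 alpha subunits, 7 beta subunits and 12 laminin chains. RNA-seq and ATAC-seq, which counts transposase insertions in accessible chromatin, were each done on 3 cultures of each line, 9 libraries per assay. Each line is a pool of stably transfected cells kept in G-418, so V-K562 cells too carry a vector and its selection. BASP1 itself was at 5 to 7 in the V-K562 libraries, 6189 to 6849 in those of B-K562 and 8124 to 12538 in those of G-K562, so the BASP1 lines also differ in how much BASP1 transcript they hold, and the part of that in the results was not tested.

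Integrins are cell surface receptors made of 1 alpha and 1 beta subunit, which bind extracellular matrix or proteins on other cells and link them to actin through talin, kindlin and vinculin. The alpha subunits fall into groups by ligand: collagen, laminin, proteins with an RGD motif such as fibronectin and vitronectin, VCAM1 and fibronectin (alpha 4, alpha 9), and counter-receptors on leukocytes and endothelium. Laminins are secreted trimers of an alpha, a beta and a gamma chain, the main proteins of basement membranes. Blood cell precursors use alpha 4 and alpha 5 integrins with beta 1 to hold on to bone marrow stroma, and K562 cells are known to attach to fibronectin through alpha 5 beta 1.

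RNA-seq values are normalized read counts: reads per gene divided by a size factor of the library. The spacing that rounding left in the values gives a depth of 28914432 to 37045203 reads on genes, so a value of 10 stands for about 10 reads and carries a large counting error. A gene was tested when it reached 10 in at least 3 of the libraries compared, and called lower or higher where the adjusted p was at most 0.05 and the change 2-fold or more. In B-K562 cells 22 members could be tested, 1 of which (LAMC3) reached 10 in V-K562 only. In G-K562 cells 27 could be tested, 2 of which reached 10 in 1 line only (ITGA4 in V-K562, ITGA8 in G-K562). ITGA2, ITGA6, ITGA8, ITGA9 and LAMA3 were tested in the comparison of G-K562 with V-K562 but not in that of B-K562 with V-K562. The other 9 members were tested nowhere, with ITGA1, ITGA11, ITGAD, ITGAL, ITGB6, ITGB8, LAMA1 and LAMB4 among them. ITGAD was at 0 in all libraries, and just outside the limit were ITGAL, which reached 13 and 22 in V-K562 libraries and at most 8 elsewhere, and ITGB8, with 15 in 1 library and 9 in each G-K562 library. Just inside it was LAMC3, at 13, 10 and 15 in V-K562. All p-values are from limma-trend, a linear model fitted across all genes, and measure the spread between cultures of 1 transfected line, so that each line stands for itself and not for a group of independently made lines.

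In B-K562 cells 13 of the 22 members tested were called lower and 1 higher, where 14.1% of all 14958 genes tested were called lower and 6.46% higher. The median log2 fold change of these members was -1.37, against 0.01 over all genes tested. With the adjusted p alone, 19 members were lower (37.2% of all genes) and 2 higher (38.6% of all genes). In G-K562 cells 2 of the 27 members tested were called lower (10.3% of all genes tested) and 6 higher (8.81% of all genes), and the median was 0.13. Set against B-K562 cells directly, G-K562 cells had 19 of 27 members higher (17.4% of all genes) and 2 lower (12.5% of all genes), with a median of 1.51. Among the 19, ITGA8 reached 10 in G-K562 only, and ITGA2, ITGA9, LAMA3 and LAMC3 reached it in no B-K562 library, so the filter favoured a rise for these. With 10 required in every library, 11 of 16 members were higher and 1 lower, and the share over all genes under that filter was not counted. Both BASP1 lines are compared with the same V-K562 libraries, so the comparisons are not independent of each other.

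**Figure D1:**
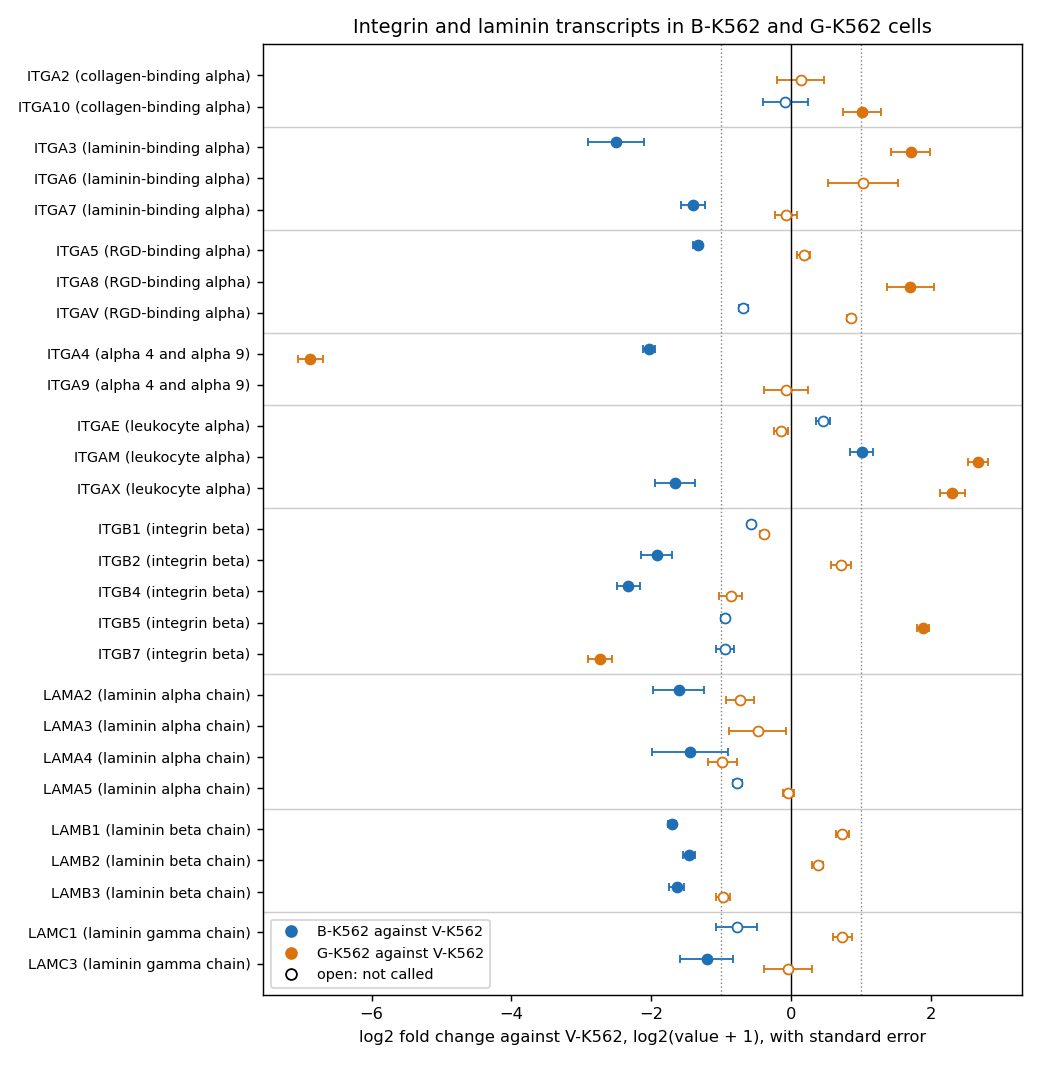
Log2 fold change against V-K562 (horizontal axis, on log2(value + 1)) with its standard error for the members tested, by role; blue is B-K562, orange G-K562, and filled points are called. In B-K562 the points lie to the left of 0 but for ITGAM and ITGAE, and ITGA10 is next to 0; in G-K562 they lie on both sides, from ITGA4 at -6.87 to ITGAM at 2.67.

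The levels of the members span a wide range. Per kilobase of exon, the transcripts of the alpha 5 beta 1 receptor for fibronectin led in V-K562 cells. ITGA5 was at 2176 ± 244 and ITGB1 at 1931 ± 82.0 normalized reads (SD, n = 3), and these did not differ beyond the spread of the libraries. LAMB1 followed at 511 ± 33.6, then LAMA5 at 448 ± 35.9, ITGB5 at 357 ± 19.97, LAMB2 at 238 ± 22.6 and ITGAV at 229 ± 6.97, the last pair within each other's range. In B-K562 cells ITGB1 stood above ITGA5, at 1301 ± 23.9 against 856 ± 22.6, and LAMB1 dropped from the third to the fifth place. In G-K562 cells ITGB5 came to 1344 ± 150, below ITGB1 at 1499 ± 73.8, and the libraries of both overlapped.

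The transcripts of both chains of the fibronectin receptor alpha 5 beta 1 were lower in B-K562 cells. ITGA5 (chromosome 12, 54395261 to 54419266, GRCh38) was at 8065, 9987 and 9696 in V-K562 cells, 3557, 3618 and 3745 in B-K562 cells and 11165, 9385 and 11322 in G-K562 cells. The B-K562 libraries lay below all others, and V-K562 and G-K562 overlapped. Its log2 fold change was -1.34 in B-K562 (standard error 0.07, adjusted p = 9.9e-10) and 0.18 in G-K562 (standard error 0.09, adjusted p = 0.11). ITGB1, the beta subunit that most alpha subunits share, was at 7507, 8103 and 8070 in V-K562, 5334, 5212 and 5405 in B-K562 and 6210, 5793 and 6379 in G-K562. All 3 lines stood apart, and it passed the adjusted p below V-K562 in both BASP1 lines within 2-fold, with log2 fold changes of -0.57 in B-K562 (standard error 0.05) and -0.39 in G-K562 (standard error 0.06). LOC102724050, a transcript on the other strand, overlaps ITGA5, and whether the authors' counting used strand is not given in the sources used here.

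ITGAV and ITGB5, which together form the vitronectin receptor alpha v beta 5, moved in opposite directions in the BASP1 lines. ITGAV (chromosome 2, 186590063 to 186680902) was at 1747, 1673 and 1648 in V-K562, at 1008, 989 and 1155 in B-K562 and at 3210, 2941 and 3166 in G-K562. ITGB5 (chromosome 3, 124761948 to 124887538) was at 1560, 1743 and 1633 in V-K562, at 829, 856 and 879 in B-K562 and at 6857, 5475 and 6261 in G-K562. For both genes the 3 lines did not overlap, with G-K562 highest and B-K562 lowest. Against V-K562, ITGB5 was 3.70-fold higher in G-K562 (log2 fold change 1.88, standard error 0.08, adjusted p = 5.2e-09), while in B-K562 its log2 fold change of -0.94 (adjusted p = 5.4e-09) fell short of 2-fold. ITGAV passed the adjusted p in both lines within 2-fold, at -0.69 and 0.85. Between the BASP1 lines ITGB5 differed by 2.83 and ITGAV by 1.54 on the log2 scale (adjusted p = 3.3e-13 and 3e-11). The third RGD-binding subunit, ITGA8, was at 4 to 7 in V-K562 and B-K562 and at 21, 14 and 24 in G-K562, where it was called higher from values near the counting limit.

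ITGA4 and ITGB7, the chains of the gut homing receptor alpha 4 beta 7, were the members called lower in G-K562 cells. ITGA4 (chromosome 2, 181456892 to 181537747), which also pairs with beta 1 to bind VCAM1 and fibronectin, was at 761, 772 and 638 in V-K562, 174, 170 and 184 in B-K562 and 6, 6 and 4 in G-K562. The 3 lines did not overlap, and against V-K562 the mean was 4.11-fold lower in B-K562 and 138-fold lower in G-K562, the latter from values of 4 to 6 and so with a large counting error. The log2 fold changes were -2.03 (standard error 0.09, adjusted p = 2.5e-10) and -6.87 (standard error 0.18, adjusted p = 1.3e-10). ITGB7 (chromosome 12, 53191318 to 53207310) was at 122, 116 and 124 in V-K562, 67, 57 and 63 in B-K562 and 15, 19 and 19 in G-K562, again with no overlap. Its log2 fold change was -0.94 in B-K562, short of 2-fold, and -2.73 in G-K562 (standard error 0.17, adjusted p = 1.1e-07). They were also the only members called lower against B-K562 in G-K562, with log2 fold changes of -4.85 and -1.79. The nearest tested genes on either side of ITGA4, UBE2E3 at 393465 bp and SSFA2 at 353969 bp, named here after their values were seen, had log2 fold changes of -0.22 and -0.29 in G-K562. ITGA9, the relative of ITGA4, was at 11, 8 and 12 in V-K562, 1, 9 and 4 in B-K562 and 11, 8 and 11 in G-K562, all low. It was called higher in G-K562 against B-K562 (log2 fold change 1.21, adjusted p = 0.037), and the call was lost without B-K562 replicate 1 (0.60) or 3, without G-K562 replicate 1 or 3, and with a pseudocount of 5 (0.70).

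**Figure D2:**
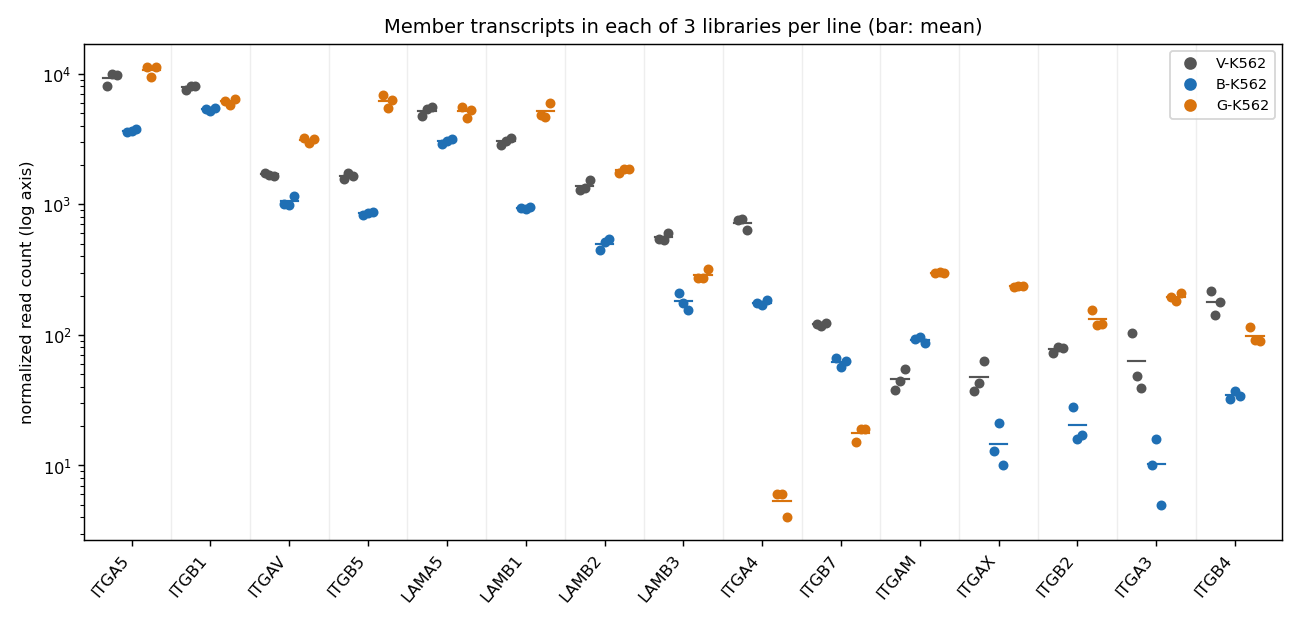
Normalized read count (log axis) of 15 members in each library, grey for V-K562, blue for B-K562 and orange for G-K562, with a bar at the mean of 3 libraries. B-K562 lies lowest for ITGA5, ITGAV, ITGB5, LAMB1 and ITGAX among others, while ITGA4 and ITGB7 step down from V-K562 through B-K562 to G-K562.

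The leukocyte integrins differed in direction among themselves. ITGAM, the alpha subunit of the complement receptor Mac-1, was at 38, 44 and 55 in V-K562, 93, 96 and 87 in B-K562 and 297, 301 and 298 in G-K562. It was the only member called higher in both BASP1 lines, with log2 fold changes of 1.01 in B-K562 (standard error 0.16, adjusted p = 7.9e-05) and 2.67 in G-K562 (standard error 0.15, adjusted p = 3.4e-08). Its call in B-K562 sits at the 2-fold limit and was lost when V-K562 replicate 1 (log2 fold change 0.89), V-K562 replicate 2 (0.99) or B-K562 replicate 2 (0.98) was left out. ITGAX, the alpha subunit of complement receptor 4, was at 37, 43 and 63 in V-K562, 13, 21 and 10 in B-K562 and 234, 237 and 238 in G-K562. It was thus called lower in B-K562 (log2 fold change -1.66, standard error 0.29, adjusted p = 0.00015) and higher in G-K562 (2.30, standard error 0.18, adjusted p = 6.2e-07). ITGAM and ITGAX lie 22.2 kb apart on chromosome 16, and ITGAD, the next gene 10.2 kb on, was at 0 in all libraries.

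ITGB2, the beta subunit that ITGAM, ITGAX, ITGAL and ITGAD share, moved with ITGAX. Its values were 73, 81 and 79 in V-K562, 28, 16 and 17 in B-K562 and 154, 119 and 121 in G-K562, with no overlap. The log2 fold change was -1.92 in B-K562 (adjusted p = 2.7e-06) and 0.72 in G-K562 (adjusted p = 0.00089, within 2-fold). ITGAE, the alpha subunit that pairs with beta 7 to bind E-cadherin, went the other way, with 364, 404 and 313 in V-K562, 549, 454 and 480 in B-K562 and 319, 322 and 349 in G-K562. It passed the adjusted p in B-K562 (log2 fold change 0.46), and in G-K562 it was at -0.14 (adjusted p = 0.24). Of a list of 8 lymphoid and monocytic markers, V-K562 libraries had a summed value of 1900 to 2034, B-K562 libraries 1549 to 1666 and G-K562 libraries 4126 to 4623, which is mostly LYZ (1303 to 1342, 1265 to 1402 and 3772 to 4301). The monocyte marker CD14 was at 12 to 23 in all 9 libraries and the B cell marker MS4A1 at 0 in all. The part of such cells in the leukocyte integrin values was not tested, and in bulk RNA a different share of cells and a different amount of RNA per cell cannot be told apart.

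The laminin-binding subunits ITGA3, ITGA7 and ITGB4 were called lower in B-K562 cells. ITGA3 was at 103, 48 and 39 in V-K562, 10, 16 and 5 in B-K562 and 195, 183 and 209 in G-K562, and the lines did not overlap. Its log2 fold change was -2.50 in B-K562 (standard error 0.40, adjusted p = 6.1e-05) and 1.71 in G-K562 (standard error 0.28, adjusted p = 0.00021). ITGA7 was at 180, 236 and 300 in V-K562, 108, 81 and 77 in B-K562 and 230, 220 and 226 in G-K562. Only B-K562 stood apart there, at -1.40 (standard error 0.18, adjusted p = 6.4e-06) against -0.08 in G-K562 (adjusted p = 0.69). ITGB4, which pairs with alpha 6 in the hemidesmosomes of epithelia, was at 216, 142 and 178 in V-K562, 32, 37 and 34 in B-K562 and 115, 91 and 90 in G-K562. It was 5.20-fold lower in B-K562 (log2 fold change -2.33, standard error 0.16, adjusted p = 2.1e-08), and in G-K562 it passed the adjusted p within 2-fold, at -0.86. Its partner ITGA6 was near the counting limit, with 24, 4 and 7 in V-K562, 21, 2 and 3 in B-K562 and 19, 18 and 22 in G-K562, and was called higher only against B-K562 (log2 fold change 1.66, adjusted p = 0.037). That call was lost without B-K562 replicate 2 (adjusted p = 0.17) or 3 (adjusted p = 0.13), and without any 1 of the G-K562 replicates.

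Of the 4 collagen-binding subunits, 2 could be tested. ITGA10 was at 9, 15 and 16 in V-K562, 12, 15 and 10 in B-K562 and 26, 26 and 30 in G-K562, called higher there at a log2 fold change of 1.02 (adjusted p = 0.006). With a pseudocount of 5 this became 0.84, and it fell short of 2-fold without V-K562 replicate 1 (0.78) or G-K562 replicate 3 (0.95). ITGA2, the other, was at 16, 9 and 9 in V-K562, 3, 2 and 4 in B-K562 and 16, 11 and 10 in G-K562, and was called higher only against B-K562. It was not tested between B-K562 and V-K562, and values of 2 to 16 carry a large counting error.

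All 3 laminin beta chains that could be tested were called lower in B-K562 cells. LAMB1 (chromosome 7, 107923801 to 108003359), the beta chain of most laminins, was at 2832, 3051 and 3230 in V-K562, 930, 917 and 951 in B-K562 and 4780, 4667 and 5995 in G-K562. The lines did not overlap, and the log2 fold change was -1.70 in B-K562 (standard error 0.06, adjusted p = 2.3e-11) and 0.73 in G-K562 (standard error 0.09, adjusted p = 2.7e-05, within 2-fold). LAMB2, the beta chain of synapses and the kidney filter, was at 1288, 1324 and 1531 in V-K562, 443, 518 and 537 in B-K562 and 1736, 1866 and 1858 in G-K562, with log2 fold changes of -1.47 and 0.38. LAMB3, the beta chain of the epithelial anchoring laminin, was at 540, 528 and 606 in V-K562, 210, 174 and 156 in B-K562 and 274, 271 and 319 in G-K562. Unlike the other beta chains it passed the adjusted p below V-K562 in both BASP1 lines, at -1.64 in B-K562 and -0.98 in G-K562. LAMA3, the alpha chain of that trimer, was barely measured, at 19, 7 and 13 in V-K562, 0, 0 and 1 in B-K562 and 6, 8 and 13 in G-K562.

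Among the alpha and gamma chains only LAMA5 was abundant. LAMA5, the alpha chain of most adult basement membranes, was at 4716, 5337 and 5504 in V-K562, 2908, 3058 and 3143 in B-K562 and 5526, 4559 and 5293 in G-K562. It passed the adjusted p in B-K562 within 2-fold (log2 fold change -0.77, standard error 0.06) and overlapped with V-K562 in G-K562 (-0.04). LAMC1, the common gamma chain, was far below its partners per kilobase of exon, at 12.2 ± 1.40 in V-K562 against 511 for LAMB1 and 448 for LAMA5. Its values were 107, 85 and 97 in V-K562, 102, 34 and 49 in B-K562 and 155, 181 and 154 in G-K562, with log2 fold changes of -0.78 (adjusted p = 0.026) and 0.73 (adjusted p = 0.00046). LAMA2, the alpha chain of muscle, was at 35, 31 and 33 in V-K562, 21, 6 and 8 in B-K562 and 21, 19 and 19 in G-K562. LAMA4, the alpha chain of blood vessels, was at 38, 35 and 38 in V-K562, 47, 6 and 7 in B-K562 and 21, 19 and 16 in G-K562. LAMC3 was at 13, 10 and 15 in V-K562, 4, 7 and 4 in B-K562 and 18, 13 and 8 in G-K562. These 3 were called lower in B-K562 at -1.61, -1.45 and -1.21, LAMA4 although its B-K562 libraries overlap those of V-K562. Without B-K562 replicate 1, where most fibroblast markers were at their highest of the line, LAMA4 was at -2.34. The LAMA4 call was lost without any 1 of the V-K562 replicates (adjusted p = 0.057 to 0.089). It was also lost without B-K562 replicate 2 (-0.95) or 3 (-1.05, past 2-fold but not the adjusted p). In 7 of 12 alternatives the LAMA4 result was weaker, and its adjusted p reached 0.13. The call of LAMC3 was lost with a pseudocount of 5 (-0.82).

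In a pair of libraries some markers of other cell types were raised within their line, and several low members were at their highest of the line there. In V-K562 replicate 1 all 6 epithelial markers of a fixed list were at their highest among the V-K562 libraries, with a sum of 1985 against 1549 and 1418, most of it EPCAM. KRT5, a keratin of basal epithelia, was at 143 there and at 0 in the other V-K562 libraries, and CDH1 was at 39 against 5 and 3. In the same library ITGB8 was at 15 against 3 and 3, and ITGA6 and ITGA3 were also at their highest of the line. In B-K562 replicate 1, 7 of 8 fibroblast markers were at their highest of the line, with a sum of 1835 against 923 and 904, COL3A1 at 575 against 4 and 2, and LUM at 61 against 1 and 3. The list summed to 1572, 1735 and 1891 in V-K562 and 1294 to 1412 in G-K562, so that sum is within the V-K562 range. COL1A1 was at 685 in that library and at 909 to 1271 in V-K562. COL3A1 was at most 146 and LUM at most 4 in the V-K562 and G-K562 libraries. LAMA4, LAMA2, LAMC1 and ITGA6 were also at their highest of the B-K562 libraries in replicate 1. Without both libraries, 14 members were called lower and 0 higher in B-K562 (ITGAM at 0.88, adjusted p = 0.003), LAMC1 joined the calls at -1.13, and G-K562 against B-K562 gave 20 members higher and 2 lower. The members said to be highest in these 2 libraries were named after their values were seen. Others, such as ITGA5 and ITGA7, were lowest of the line in V-K562 replicate 1. The part of other cell types in the values of these 2 libraries was not tested. Replicate 1 was also highest of its line for 6 of 10 erythroid markers, in V-K562 as in B-K562. The 10 erythroid markers of K562 were present in all libraries, where V-K562 had sums of 125459 to 141729, B-K562 217788 to 221709 and G-K562 69271 to 75051, and their part in the member results was not tested either.

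**Figure D3:**
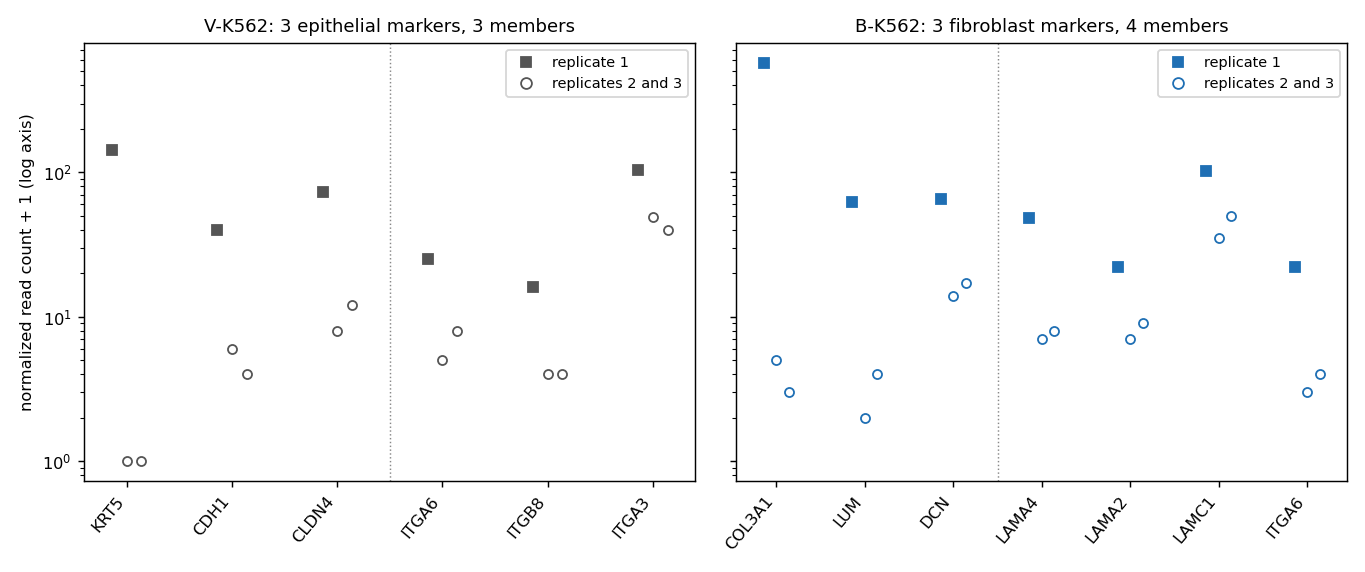
Normalized read count + 1 (log axis) in V-K562 (left) and B-K562 (right) of 3 markers of other cell types and 3 (left) or 4 (right) members; squares are replicate 1, circles replicates 2 and 3. Replicate 1 lies above the others for each of the genes shown, as for KRT5 at 143 against 0 and 0 and ITGB8 at 15 against 3 and 3. Only genes highest in replicate 1 are shown (3 of 6 epithelial and 3 of 8 fibroblast markers, and members), so this pattern follows from their choice.

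The genes that integrins work with were followed in lists of 30 adaptors and activators, 18 ligands outside the laminins, 12 partners and other receptors of laminins and 6 tetraspanins. Of 27 adaptors tested in B-K562 cells 2 were called lower (14.1% of all genes) and 0 higher by limma-trend (6.46% of all genes), and at the adjusted p alone 13 were lower (37.2% of all genes) and 6 higher (38.6% of all genes). In G-K562 cells 4 were called lower (10.3% of all genes) and 2 higher (8.81% of all genes). APBB1IP, which brings talin to integrins, fell most in both comparisons with V-K562, from 165, 160 and 145 in V-K562 to 4, 3 and 0 in B-K562 (log2 fold change -5.86, standard error 0.46) and 19, 11 and 15 in G-K562 (-3.35, standard error 0.21). FERMT2, kindlin-2, rose most in G-K562, from 130, 134 and 198 in V-K562 to 704, 669 and 861 (2.26, standard error 0.16). TNS1, a tensin, was the adaptor that fell most between the BASP1 lines, from 1923, 2028 and 1920 in B-K562 to 164, 155 and 132 in G-K562 (-3.72, standard error 0.08).

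Ligands were called in G-K562 cells and laminin partners in both lines. Of 9 ligands tested in B-K562 cells 0 were called lower (14.1% of all genes) or higher (6.46% of all genes) by limma-trend. At the adjusted p alone 3 were lower (37.2% of all genes) and 4 higher (38.6% of all genes), and an unadjusted p under 0.05 gave the same counts. Of 13 tested in G-K562, 7 were called higher (8.81% of all genes), and the 3 that were lower at the adjusted p (33.3% of all genes) stayed within 2-fold. FN1, fibronectin, was at 1200, 1741 and 2164 in V-K562, 1078, 869 and 947 in B-K562 and 11612, 13839 and 15510 in G-K562, a difference of 3.79 on the log2 scale between the BASP1 lines (standard error 0.16, adjusted p = 4.9e-11). ICAM2, a ligand of leukocyte integrins, fell most between them, from 1642, 1642 and 1644 in B-K562 to 672, 743 and 648 in G-K562 (-1.28, standard error 0.07). POSTN rose most in G-K562, though from 0 to 2 in V-K562 to 14, 15 and 23, with 22 in B-K562 replicate 1. VCAM1, the ligand of alpha 4 beta 1, was at 1 in each V-K562 library and at 15, 16 and 14 in G-K562 and is named here after its values were seen. Of 10 laminin partners and receptors tested in B-K562, 4 were called lower (14.1% of all genes) and 0 higher (6.46% of all genes). By limma-trend 0 were higher even at an unadjusted p under 0.05. The largest fall was that of BCAM, a laminin alpha 5 receptor, from 275, 229 and 283 to 64, 70 and 78 (-1.88, standard error 0.12). Of 10 partners tested in G-K562, 5 were called higher (8.81% of all genes) and 0 lower (10.3% of all genes), with 3 lower at the adjusted p of limma-trend (33.3% of all genes). DTNA, a member of the dystrophin complex, was at 64, 64 and 69 in V-K562, 27, 18 and 14 in B-K562 and 327, 375 and 373 in G-K562, called in opposite directions. NID1, nidogen, fell most between the BASP1 lines (-2.08, standard error 0.75), from 28, 4 and 2 in B-K562, where replicate 1 alone was high, to 1, 2 and 0 in G-K562. Of 6 tetraspanins, CD82 was the only one called in B-K562 (14.1% of all genes lower), at -1.02 (standard error 0.09). It was also the largest rise between the BASP1 lines, at 1.503. TSPAN32 was the only one called in G-K562 (8.81% of all genes higher), at 1.57 (standard error 0.13). These single calls are read no further.

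In ATAC-seq, peaks of the 9 libraries were merged into 85549 regions, of which 194 had a member as the closest gene within 5 kb, and all 36 members had at least 1. A region's value is the number of tags at its summit, scaled between libraries by a trimmed mean before the test, and the values quoted are before scaling. V-K562 libraries had a mean pileup over peaks of 40.3 to 40.9 tags, B-K562 libraries 47.4 to 47.8 and G-K562 libraries 50.7 to 52.3, before scaling. A library with no called peak was set to 17 tags for the test and is not shown to have had fewer, so fold changes against libraries without a peak depend on that floor. In B-K562 cells 9 of the 108 member regions tested were closed (6.15% of all regions tested) and 0 opened (1.53% of all regions). At the adjusted p alone these were 20 (16.6% of all regions) and 1 (8.58% of all regions). At an unadjusted p under 0.05 they were 33 and 4, for which the share over all regions was not counted. The 9 closed regions lay at ITGA2, ITGA8 (2), ITGAV, LAMA2, LAMA4, LAMB3 and LAMB4 (2). In G-K562 cells 17 of 124 were closed (13.1% of all regions) and 1 opened (2.87% of all regions). The closed ones lay at LAMB4 (4), LAMB3 (3), ITGA9 (3), ITGA8 (2) and 1 each at ITGA11, ITGAV, ITGB7, LAMA2 and LAMA5. Without the scaling 6 were closed and 7 opened in G-K562, and with scaling within bins of GC content 8 were closed and 3 opened, so that the split between closed and opened there depends on the scaling. The share of closed regions in each line is near that of all regions tested, and is read no further.

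**Figure D4:**
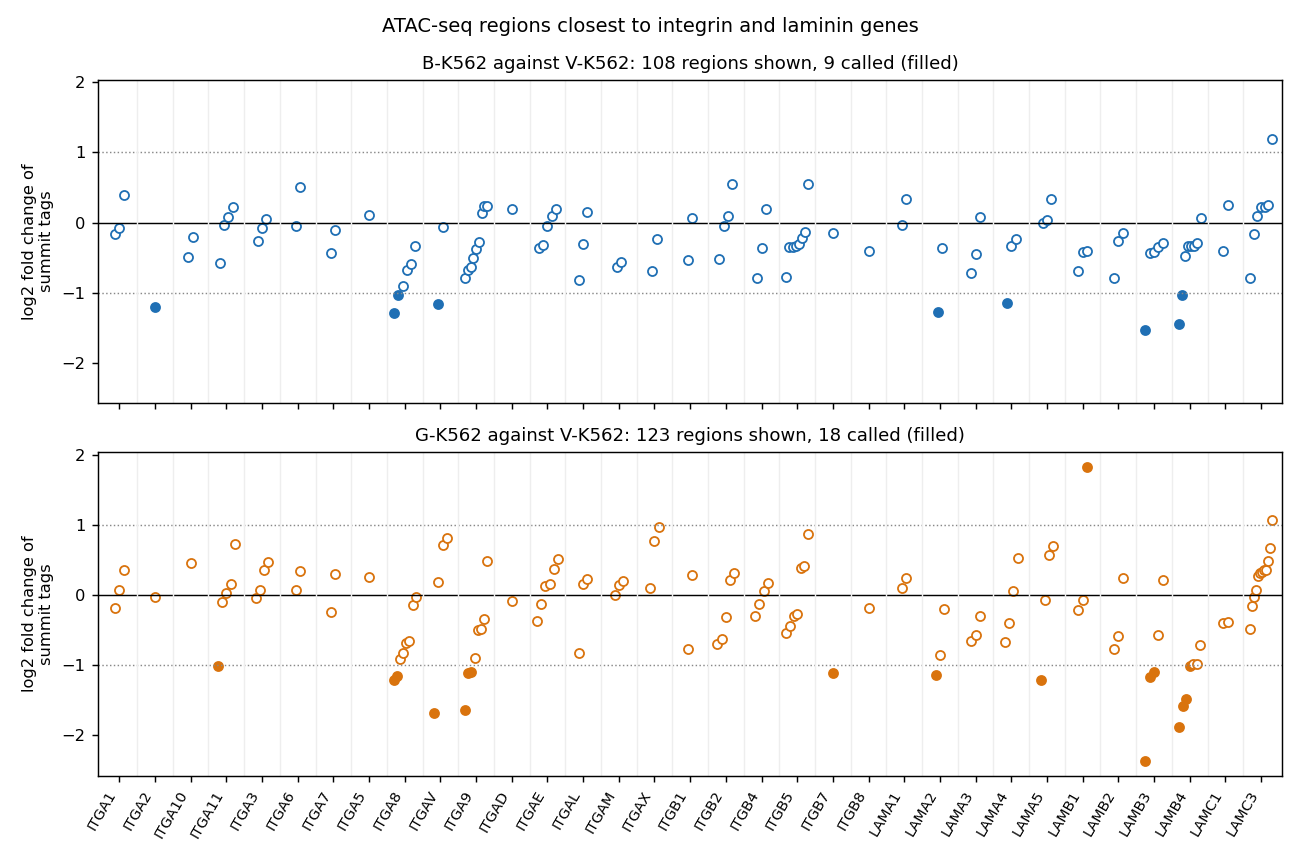
Log2 fold change of scaled summit tags (vertical axis) for each region tested, by closest member, in B-K562 (upper panel, 108 regions) and G-K562 (lower panel, 123 of 124 regions); filled points are called. The 9 called in B-K562 all lie below 0, and of the 18 called in G-K562 only the LAMB1 intron region lies above 0, at 1.82.

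Sequences are shown for 300 bases around the summit of regions among those with the largest changes. They are also shown at the starts of ITGA4, the member that fell most in G-K562, and ITGB5, a member called higher there. The windows are on the plus strand of GRCh38 for regions and on the strand of the gene for starts (RefSeq, GRCh38.p14, 25 of 36 members matched). Capitals mark matches on either strand to short motifs of factor families: the letters TGANTCA for the AP-1 family, AGATAA for the family of GATA factors, CCGGAAG for the ETS family, TGTGGT for the RUNX family, GCGTGGG for WT1 and the EGR family, GGGCGG for the family of SP factors, and CACGTG for factors that bind the E-box.
LAMB3 upstream, chr1:209657131-209657430: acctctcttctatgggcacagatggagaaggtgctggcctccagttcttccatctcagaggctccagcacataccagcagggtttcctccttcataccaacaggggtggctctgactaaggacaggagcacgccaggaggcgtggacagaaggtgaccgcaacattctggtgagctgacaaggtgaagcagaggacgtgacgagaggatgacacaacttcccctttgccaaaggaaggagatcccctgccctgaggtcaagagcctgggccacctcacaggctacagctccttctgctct
LAMB1 intron, chr7:107998123-107998422: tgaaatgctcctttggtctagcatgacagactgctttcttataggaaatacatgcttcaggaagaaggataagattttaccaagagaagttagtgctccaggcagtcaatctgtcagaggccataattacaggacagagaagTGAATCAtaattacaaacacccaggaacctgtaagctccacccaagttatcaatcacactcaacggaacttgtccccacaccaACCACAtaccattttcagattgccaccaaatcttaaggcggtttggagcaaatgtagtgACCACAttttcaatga
LAMA5 intron, chr20:62357259-62357558: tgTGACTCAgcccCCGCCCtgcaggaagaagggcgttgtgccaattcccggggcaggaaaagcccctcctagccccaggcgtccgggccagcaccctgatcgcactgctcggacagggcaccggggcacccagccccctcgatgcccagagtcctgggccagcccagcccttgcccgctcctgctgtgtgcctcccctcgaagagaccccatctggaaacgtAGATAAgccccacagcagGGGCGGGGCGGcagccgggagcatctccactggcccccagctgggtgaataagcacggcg
ITGB5 start, chr3:124887316-124887615: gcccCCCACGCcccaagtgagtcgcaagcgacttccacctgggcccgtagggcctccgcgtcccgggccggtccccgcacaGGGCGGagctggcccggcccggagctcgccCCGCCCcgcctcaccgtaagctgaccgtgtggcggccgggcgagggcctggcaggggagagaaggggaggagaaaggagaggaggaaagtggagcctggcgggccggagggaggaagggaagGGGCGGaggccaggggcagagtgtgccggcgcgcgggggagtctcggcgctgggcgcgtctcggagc
ITGA4 start, chr2:181457136-181457435: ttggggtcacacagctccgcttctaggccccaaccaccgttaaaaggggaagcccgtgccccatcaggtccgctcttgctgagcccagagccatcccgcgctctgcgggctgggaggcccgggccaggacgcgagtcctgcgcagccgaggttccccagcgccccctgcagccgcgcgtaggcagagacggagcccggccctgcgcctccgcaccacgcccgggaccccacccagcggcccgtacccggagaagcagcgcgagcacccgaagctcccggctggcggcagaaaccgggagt

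These windows differ in the motifs they hold. The LAMB3 upstream window has none of the 7 motifs. In the LAMB1 window lie 1 AP-1 match (20.1% of the windows of all 85549 regions) and 2 RUNX matches (22.0%), and the LAMA5 window has 1 AP-1, 1 GATA (23.4%) and 3 SP matches (24.2%). The ITGB5 start window, with a GC content of 75.7%, has 3 SP matches and 1 to WT1 and EGR, motifs found in 45.0% and 6.98% of all 35116 RefSeq start windows. The ITGA4 start window has a GC content of 72.3% and no match. A match describes letters in the window and does not show that a factor binds there.

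LAMB3 regions differed between the BASP1 lines. The region 4855 bp from the start, chr1:209657113-209657496, had 60, 53 and 56 in V-K562, a peak of 28 in only 1 B-K562 library and 87, 72 and 92 in G-K562. This upstream region was called closed in B-K562 (-1.54, adjusted p = 0.0043) and was at 0.21 in G-K562 (adjusted p = 0.25). At the start itself, chr1:209651210-209651593, tags went from 66, 78 and 84 in V-K562 to 55, 74 and 59 in B-K562 and 37, 43 and 55 in G-K562, closed in G-K562 at -1.10 (adjusted p = 0.0027) but short of 2-fold without scaling, at -0.75.

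LAMB1 held the only member region opened in G-K562. This intron region, chr7:107998080-107998491, 3868 bp from the nearest start, had no peak, 24 and 29 tags in V-K562, 20 and no peaks in B-K562 and 127, 63 and 130 in G-K562 (log2 fold change 1.82, standard error 0.33, adjusted p = 0.0042). The G-K562 libraries lay above all others, and against B-K562 the difference was 2.24 (adjusted p = 0.00058). The region at the LAMB1 start had 41, 40 and 55 tags in V-K562, 37, 35 and 22 in B-K562 and 33, 70 and 51 in G-K562. It missed the threshold in B-K562 (-0.69, adjusted p = 0.086) but passed the adjusted p with scaling within GC bins (-0.93, adjusted p = 0.045), and in G-K562 it was at -0.22 (adjusted p = 0.59). LAMB4, the next gene 8.3 kb on, had transcript values of 1 to 7 and 16 regions. In G-K562 7 of these could be tested and 4 were closed (13.1% of all regions tested). In B-K562 8 could be tested and 2 were closed (6.15% of all regions tested). The largest of these, chr7:108037179-108037533, had 61, 52 and 60 tags in V-K562, 33, 20 and no peak in B-K562 (-1.45) and no peaks in G-K562 (-1.87).

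Within 5 kb of a transcription start 25 members had a region, of which 16 could be tested in B-K562 and 18 in G-K562. At the adjusted p alone 2 were lower in B-K562 (16.6% of all regions), and 3 were lower (26.0% of all regions) and 2 higher (15.9% of all regions) in G-K562. These shares are near or below those of all regions and are read no further, and the starts are given as values. The 2 higher starts were those of ITGB5 and ITGAV, and neither passed with scaling within GC bins. The ITGB5 start region, chr3:124887101-124887725, had 72, 50 and 62 tags in V-K562, 53, 62 and 70 in B-K562 and 121, 167 and 141 in G-K562 (log2 fold change 0.86 on scaled values, adjusted p = 0.0089, and 0.46 with GC bins, adjusted p = 0.11). For ITGAV, chr2:186589691-186590395, they were 174, 221 and 251, then 234, 226 and 218, then 399, 454 and 491 (0.71, adjusted p = 0.0051, and 0.303 with GC bins, adjusted p = 0.057). Between the BASP1 lines both were higher in G-K562 at the adjusted p under each scaling, at 0.98 and 0.76. B-K562 overlapped with V-K562 in both, although both transcripts were lower there, with log2 fold changes of -0.14 and -0.07 (adjusted p = 0.63 and 0.72). A neighbouring ITGAV region, chr2:186590872-186591189, 928 bp from the start, went the other way, with 42, 55 and 54 tags in V-K562, 44 in only 1 B-K562 library and no peaks in G-K562 (-1.67, adjusted p = 0.00046). At the ITGAX start, chr16:31354927-31355323, there were 20, 39 and 38 tags in V-K562, peaks of 23 and 22 in B-K562 and 82, 61 and 64 in G-K562. This region was called opened between the BASP1 lines (1.47, adjusted p = 0.0029) and missed the threshold against V-K562 (0.77, adjusted p = 0.055), where it was at 1.12 without scaling (adjusted p = 0.013). The ITGAM start had 28, 26 and 27 tags in V-K562, 20, 19 and no peak in B-K562 and 36, 30 and 38 in G-K562, at 0.00 after scaling in G-K562 (adjusted p = 0.99). In B-K562, where the transcript was called higher, this start was lower (-0.64, adjusted p = 0.013), and between the BASP1 lines it differed by 0.65 (adjusted p = 0.0097).

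**Figure D5:**
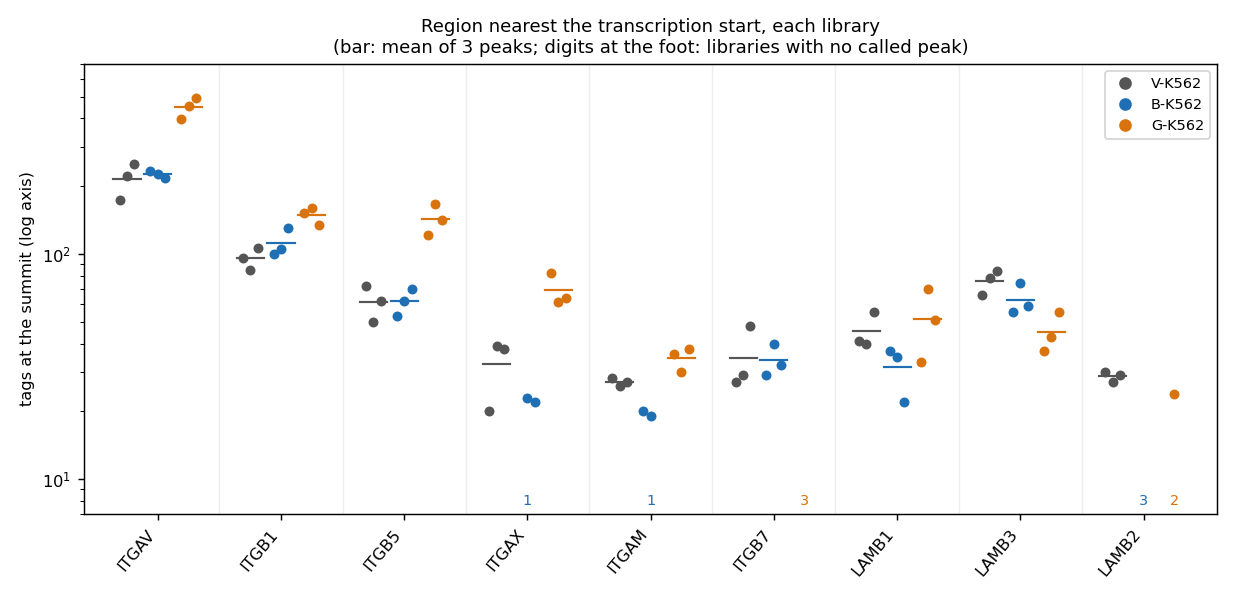
Tags at the summit before scaling (log axis) in the region nearest the transcription start of 9 members, grey for V-K562, blue for B-K562, orange for G-K562; bars are means of 3 peaks and digits at the foot count libraries with no called peak. Before scaling, G-K562 stands above the other lines at ITGAV, ITGB1, ITGB5, ITGAX and ITGAM, below V-K562 at LAMB3, and has no peak at ITGB7. Its mean pileup over peaks was also the highest of the lines. After scaling, G-K562 against V-K562 was at 0.29 for the ITGB1 start (adjusted p = 0.12, limma-trend) and at 0.00 for that of ITGAM.

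The members that fell in G-K562 differed at their starts. At ITGB7, chr12:53200850-53201523, there were 27, 29 and 48 tags in V-K562, 29, 40 and 32 in B-K562 and no peak in G-K562, closed at -1.11 (adjusted p = 0.0067). It passed the adjusted p but fell short of 2-fold with GC bins (-0.91) and without scaling (-0.94). ITGA4 had a single region, at its start, with a peak of 17 tags in B-K562 replicate 3 and none in any other library, so it could not be tested, although V-K562 had 638 to 772 normalized reads of the transcript. At the LAMB2 start, chr3:49132822-49133216, there were 30, 27 and 29 tags in V-K562, no peaks in B-K562 and a peak of 24 in 1 G-K562 library, while the transcript was lower only in B-K562. ITGA5, the highest of the alpha subunits per kilobase, likewise had a start peak in 1 library only. A lack of called peaks at these GC-rich starts (75.8% and 71.0% GC) does not show a lack of accessibility.

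Some members had both a closed region and a lower transcript. In B-K562 cells 7 members had a closed region, 4 of them with a transcript that could be tested, and 13 had a lower transcript. LAMA2, LAMA4 and LAMB3 had both, 75% of the 4 and 23.1% of the 13. Of all 22 members tested 59.1% were lower, so 3 of 4 is read no further, and the LAMA4 call was lost without any 1 V-K562 replicate. In G-K562 cells 9 members had a closed region, 7 of them with a tested transcript. Of these ITGB7 alone had a lower one, 14.3% of the 7 (7.41% of all 27 members tested) and 50% of the 2 called lower. How often both meet over all genes was not tested. LAMA5 had an intron region, chr20:62357094-62357730, with 66, 61 and 59 tags in V-K562, 80, 93 and 89 in B-K562 and 29, 33 and 39 in G-K562 (-1.21, adjusted p = 0.0015, and -0.87 without scaling), while its transcript overlapped between V-K562 and G-K562. ITGA9 had 3 of 8 tested regions closed in G-K562 and ITGA8 2 of 8 (13.1% of all regions tested), with transcripts of at most 12 and 24 in any library. Between the BASP1 lines 7 member regions were lower in G-K562 (8.6% of all regions tested) and 8 higher (4.28% of all regions), among the latter 2 in LAMC3 introns with 57 to 91 tags in G-K562 and no peak in B-K562.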

How the data were processed

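RNA-seq and ATAC-seq libraries of K562 lines with an empty vector, wtBASP1 or BASP1-G2A were grouped by their labels, 3 per line and assay. Per the study's methods, reads of RNA-seq were mapped by the authors with STAR to GRCh38, and Subread counted those on each RefSeq gene. The authors then divided each library by its DESeq2 size factor and rounded, which gave the deposited signal values, in 1 table per BASP1 line. V-K562 values are printed from the table shared with B-K562. The authors' fold changes and p-values in these tables were not used. ATAC-seq reads were aligned by the authors with BWA-MEM, who sampled libraries to equal tag numbers and ran MACS2 on each, and the deposited signal values are tags at peak summits.

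Since the deposited values are not counts, limma-trend (limma 3.58.1, R 4.3.3) was fitted to log2(value + 1) for genes that reached 10 in 3 or more libraries, two-sided, with Benjamini-Hochberg adjustment over all genes. Fold changes on this scale are understated for low genes. G-K562 was set against B-K562 in a fit of all 9 libraries, with the latter multiplied by 1.02, the mean factor between the V-K562 columns of the tables. ATAC-seq intervals were merged, their summit tags scaled by a trimmed mean (30% of log ratios trimmed), set to at least 17 tags (the 5th percentile), and tested for regions with a peak in 3 or more libraries. Regions belong to the closest gene within 5 kb, and coordinates are as in the files.

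Members, gene lists and tests were chosen with earlier results of these data known. Values in every library are given for members called in at least 1 RNA-seq comparison (ITGA8 partly by range) and for ITGB1, LAMB1 and LAMC1. They are given for only some of the regions nearest a start or most changed, and for only some of the largest falls and rises of the pathway lists. Values of 1 member and of 1 region are not reported here. The fit was tested on simulated data. Alternatives were other filters, pseudocounts, scalings and floors, a replicate block and each library left out. Other tools were Python 3.11.15, numpy 2.4.6, pandas 2.3.3 and matplotlib 3.10.9.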

Additional observations from a re-analysis of the deposited data

Results flagged for a closer look

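ITGA3 and ITGAX were called in opposite directions, lower in B-K562 and higher in G-K562, each against the same V-K562 libraries. A difference between the BASP1 lines follows from that choice, so its size is a description and adds no support. G-K562 exceeded B-K562 by 4.22 on the log2 scale for ITGA3 (standard error 0.36, adjusted p = 6.8e-08, limma-trend) and by 3.96 for ITGAX (standard error 0.25, adjusted p = 2.1e-09). For both genes all 3 G-K562 libraries lay above, and all 3 B-K562 libraries below, every V-K562 library.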

How the results depend on the processing

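Without a fold criterion 2 members were higher in B-K562 (38.6% of all genes), and 7 lower (33.3% of all genes) and 11 higher (33.5% of all genes) in G-K562. With a pseudocount of 5, or without the libraries that hold other markers (an alternative added after seeing the data), 0 were higher in B-K562. When every library had to reach 10, 1 member was lower in G-K562, and against B-K562 1 was lower and 11 higher there. For regions, a peak in every library left 3 closed in B-K562, 6 closed and 0 opened in G-K562, and 1 higher between the BASP1 lines. Scaling within GC bins (also added) gave 5 closed in B-K562 and 8 closed and 3 opened in G-K562. No scaling gave 6 closed and 7 opened in G-K562, and 3 lower between the BASP1 lines. The floor at the lowest summit pileup gave 6 opened in G-K562 and 13 higher between the BASP1 lines, and counting any region within 5 kb gave 2 opened in G-K562. Without a fold criterion 20 regions were closed (16.6% of all regions) and 1 opened (8.58%) in B-K562, and 35 (26.0%) and 9 (15.9%) in G-K562. Between the BASP1 lines 11 were then lower (15.6% of all regions) and 21 higher (12.3%). The cause was not tested in any of these.

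With each library left out in turn, 12 to 14 members were lower and 0 to 1 higher in B-K562, 2 to 5 lower and 5 to 6 higher in G-K562 (5 lower without V-K562 replicate 2), and 2 lower and 16 to 20 higher between the BASP1 lines. The rise in B-K562 was lost without V-K562 replicate 1 or 2 or B-K562 replicate 2. For regions these were 5 to 8 closed (5 without V-K562 replicate 2 or B-K562 replicate 2) and 0 to 1 opened (1 without V-K562 replicate 1), 15 to 20 closed and 1 to 3 opened (2 or 3 without any 1 V-K562 replicate or G-K562 replicate 3), and 6 to 9 lower and 5 to 8 higher (5 without B-K562 replicate 2). Among the 27 members tested, signs turned in 7 comparisons that were past no threshold. These ran from -0.32 to 0.059 for ITGA10 in B-K562, and in G-K562 from -0.055 to 0.39 for ITGA2, from -0.26 to 0.11 for ITGA7, from -0.25 to 0.069 for ITGA9 from -0.11 to 0.039 for LAMA5 and from -0.30 to 0.24 for LAMC3, which was at 0.012 without the libraries with other markers. LAMA4 between the BASP1 lines ran from -0.025 to 1.36. LAMA4 in B-K562 had an adjusted p of 0.093 without the filter on low values.

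The replicate numbers are shared between lines. Correlations of same-numbered libraries' deviations ran from -0.097 to 0.15 in RNA-seq and from 0.0079 to 0.12 in ATAC-seq, where all were positive. Those of libraries with different numbers ran from -0.18 to 0.22 in RNA-seq and from -0.085 to 0.047 in ATAC-seq. The main fits left the replicate number out, and whether ATAC-seq libraries of 1 number share more than the number was not tested. With the replicate number as a block, 13 members were lower and 1 higher in B-K562, 2 and 7 in G-K562, 2 and 19 between the BASP1 lines, and 1 region opened in B-K562. Values under about 10 reads, and regions without a called peak, limit what can be shown for the low members.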
